A study of Mus musculus with 6 samples.

Results

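The vacuolar proton pump, or V-ATPase, was followed through its subunit genes in sorted mouse bone marrow stem and progenitor cells with and without the Cre recombinase that deletes part of Raptor. A fixed list of 10 genes defined the set: Atp6v0a1, Atp6v0c, Atp6v0d1, Atp6v0d2, Atp6v1a, Atp6v1b2, Atp6v1c1, Atp6v1d, Atp6v1h and Atp6ap1. Probe sets that name 1 of these genes and no other were kept, which gave 23 probe sets for 9 of the 10 genes, out of 18193 genes in all. No probe set named Atp6v0c alone, so the gene of the membrane proteolipid was not analysed here. For each gene the probe set with the highest mean over the 6 arrays was tested, and the others are given beside it.

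RNA was measured on 3 arrays of each genotype, wild type and Raptor mutant, all from mice on a C57BL/6 background with both Raptor alleles floxed at exon 6. The mutant mice carried the Mx-Cre transgene and the wild type mice did not. Mx-Cre is switched on by interferon in many cell types, so the deletion need not be limited to the sorted cells. Mice of both groups were given polyinosinic-polycytidylic acid (pIpC), which induces interferon, in 3 doses of 15 µg per g body weight over 5 days, and 5 weeks later cells were sorted that carried Sca1 and cKit but neither Flt3 nor lineage markers. Whether an array stands for 1 mouse or a pool is not stated in the labels, nor is the age of the mice. The p-values below therefore measure the spread between arrays, which may be partly technical.

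The V-ATPase is a rotary motor that uses ATP to move protons into lysosomes, endosomes and secretory granules. Its cytosolic sector, called V1, hydrolyses ATP and turns a central axle, and its membrane sector, called V0, carries the protons. On the lysosome the pump also binds the Ragulator complex, through which amino acids recruit mTORC1, the kinase complex defined by Raptor. In turn mTORC1 holds the transcription factors TFEB, TFE3 and MITF in the cytosol, and these factors are known activators of lysosomal genes, pump subunits included.

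None of the 9 measured genes was called changed between mutant and wild type arrays at an adjusted p under 0.05 (limma, Benjamini-Hochberg over all genes), a threshold that 0.110% of all genes passed. The 9 adjusted p-values lay between 0.395 and 0.906 (limma). At an unadjusted p under 0.05, 3 of the 9 genes were higher in mutant arrays, Atp6v0d2, Atp6v1b2 and Atp6v0d1, and 0 were lower. The same cutoff was met by 5.81% of all genes in the higher and 4.24% in the lower direction. All mutant arrays lay above all wild type arrays in 3 of the 9 genes, Atp6v0d1, Atp6v1b2 and Atp6v1h, as in 8.08% of all genes, and 0 of the 9 were separated the other way, as were 7.98% of all genes. Since 8 of the 9 genes belong to the brighter 50% of genes, the share there is also given: 13.4% of the brighter genes were separated in that way. The median log2 fold change was 0.43 over the 9 genes, -0.07 over all genes and 0.06 over the brighter 50%. These medians and counts describe the set, and no test was made over it.

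**Figure D1:**
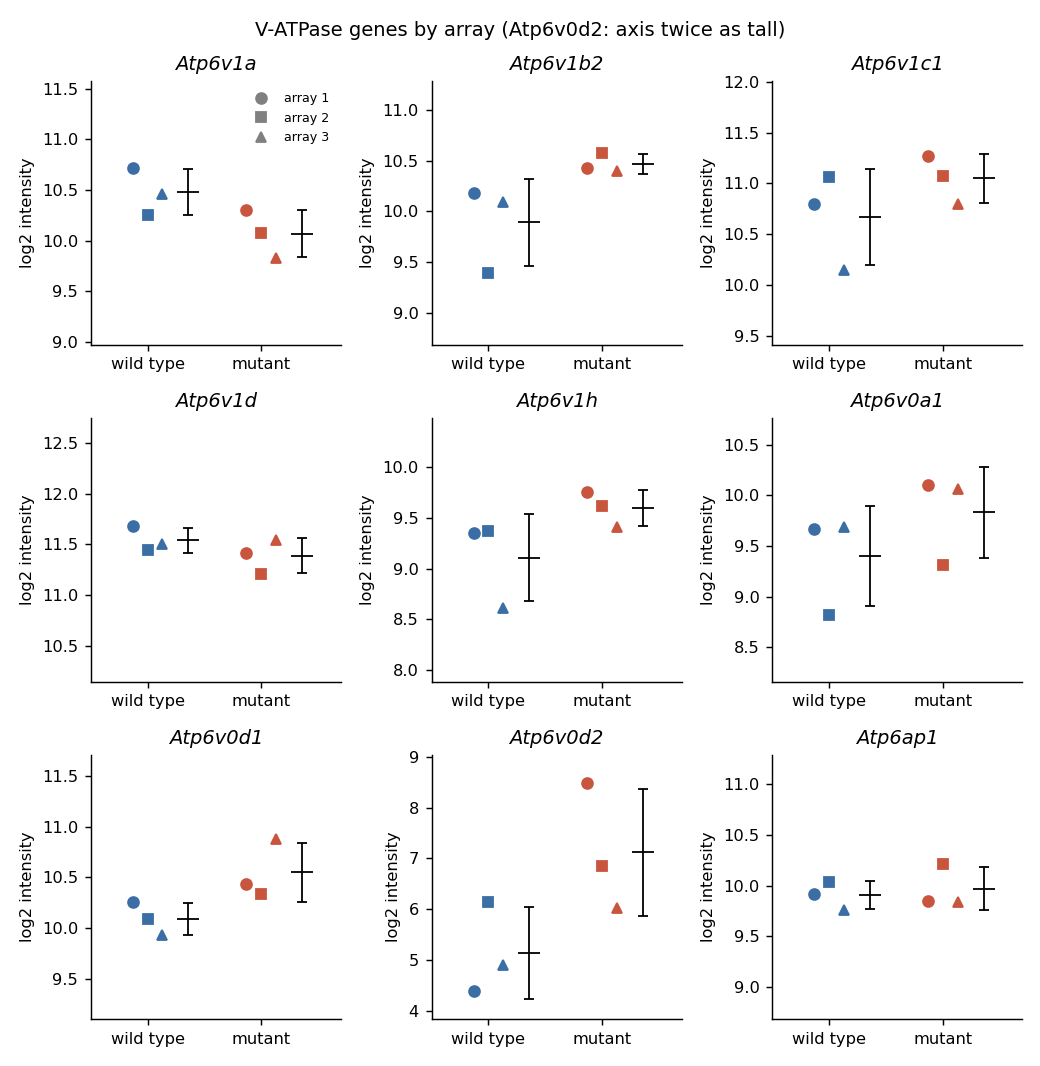
Log2 intensity of the 9 measured V-ATPase genes (vertical axis) on the 3 wild type (blue) and 3 Raptor mutant (red) arrays, with circles, squares and triangles for arrays 1, 2 and 3 of each group. Black bars show the group mean with 1 SD, and each panel has its own axis, of equal height except for Atp6v0d2. The groups do not overlap in Atp6v1b2, Atp6v1h and Atp6v0d1 and overlap in the other genes.

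Before the single genes, some features of the arrays bear on every difference. Wild type arrays 2 and 3 carried Y-linked signal (mean log2 intensity of Eif2s3y and Kdm5d of 10.68 and 10.01), whereas wild type array 1 and the mutant arrays did not (3.79 to 4.21), and the labels give no sex. A comparison among arrays without that signal therefore has wild type array 1 as its only control, and the arrays with it are all wild type. Xist had a log2 intensity of 13.46, 8.05 and 5.69 on wild type arrays 1, 2 and 3 and of 13.37 to 13.40 on mutant arrays. Wild type array 1 was also more like the mutant arrays than like its own group. Across probe sets it correlated with mutant arrays 1, 2 and 3 at r of 0.984, 0.983 and 0.977, but with wild type arrays 2 and 3 at 0.962 and 0.967. Wild type arrays 2 and 3 correlated with each other at 0.957. The targeted gene was not called changed either: Rptor had a log2 intensity of 8.11 ± 0.49 in wild type and 8.33 ± 0.35 in mutant arrays (SD, n = 3 each), with an adjusted p of 0.77 (limma). The position of its probes with respect to exon 6 is unknown here, so the value is no check of the deletion. Of the sort markers, Kit had a log2 intensity of 10.71 to 11.17 over the 6 arrays, and Sca1, the product of Ly6a, had no probe set of its own. Of 8 measured stem and progenitor cell genes 4 had all mutant arrays below all wild type arrays, as had 7.98% of all genes. Tek, a receptor gene of stem cells, was called and fell by 1.48 on the log2 scale (adjusted p = 0.030, limma), and the others, Mecom, Procr and Hlf, were not called, with -0.86 for Procr and -0.81 for Hlf. Their part in the V-ATPase values was not tested.

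The V1 sector is represented by 5 genes. Atp6v1b2 encodes a B subunit, which alternates with the catalytic A subunits in the ATP-hydrolysing head. Its log2 intensity was 10.18, 9.39 and 10.09 on wild type arrays 1, 2 and 3 and 10.43, 10.58 and 10.40 on mutant arrays 1, 2 and 3. The mutant arrays were all higher, by a gap of 0.22 to the nearest wild type array, and wild type array 2 was the lowest of the 6. Mutant exceeded wild type by a log2 fold change of 0.58 ± 0.23 (SE), or 1.5-fold, with a 95% interval of 0.05 to 1.12 and an adjusted p of 0.47 (limma). Of the 3 other Atp6v1b2 probe sets, 2 had every mutant array above every wild type array, with log2 fold changes of 0.60 and 0.99. The last had -0.19, with a wide interval of -1.47 to 1.08. The main probe set differed by 0.33 without wild type array 2, and by 0.29 against wild type array 1 alone.

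Atp6v1a, the gene of the catalytic A subunit, had the lowest fold change of the set. Wild type arrays 1, 2 and 3 gave 10.72, 10.25 and 10.46, and mutant arrays gave 10.30, 10.08 and 9.83, so that the groups overlapped through wild type array 2 and mutant array 1. Mutant minus wild type, the log2 difference was -0.41 ± 0.20 (SE), with a 95% interval of -0.87 to 0.04 and an adjusted p of 0.54 (limma). The dimmer probe set of this gene went the other way: all mutant arrays were above all wild type arrays, with a log2 fold change of 0.31 and an interval of -0.11 to 0.74. No direction can therefore be given for Atp6v1a. With the probe sets averaged the value was -0.05, and against wild type array 1 alone the brighter probe set differed by -0.65.

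Atp6v1h encodes the H subunit, which is needed for pumping and holds the released V1 sector inactive. Values were 9.35, 9.37 and 8.61 on wild type arrays and 9.76, 9.62 and 9.41 on mutant arrays. The mutant values were all higher, but the gap to wild type array 2 was only 0.03, and wild type array 3 was far below the rest. The log2 fold change of 0.48 ± 0.24 (SE) had a 95% interval of -0.07 to 1.04 and an adjusted p of 0.55 (limma). The difference was 0.24 without wild type array 3, 0.25 against wild type array 1 alone and 0.15 with the probe sets averaged. Both dimmer probe sets overlapped between groups, with 0.08 and -0.13.

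Atp6v1c1 encodes the C subunit, a clamp between the stator and the membrane sector that is let go when the pump comes apart. It measured 10.80, 11.06 and 10.15 on wild type and 11.27, 11.07 and 10.80 on mutant arrays. Wild type array 3 was again the lowest, while wild type array 2 stood level with mutant array 2. All 3 probe sets of the gene had positive fold changes, from 0.25 to 0.45, and in each the groups overlapped. The main one had a log2 fold change of 0.38 ± 0.26 (SE), with an interval of -0.22 to 0.98 and an adjusted p of 0.64 (limma). Without wild type array 3 it was 0.12.

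Atp6v1d, for the D subunit of the rotating axle, was bright and even. Its log2 intensity was 11.68, 11.44 and 11.50 on wild type arrays and 11.42, 11.21 and 11.54 on mutant arrays, and the groups overlapped. A log2 fold change of -0.15 ± 0.16 (SE) had a 95% interval of -0.53 to 0.23, or 0.693-fold to 1.17-fold. The adjusted p was 0.74 (limma). The remaining probe sets had -0.21 and -0.01, close to the main one.

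The V0 sector is represented by Atp6v0a1, Atp6v0d1 and Atp6v0d2. The d subunit sits on the proteolipid ring and joins it to the axle, and it exists as a widely expressed form, d1, and a form typical of osteoclasts, macrophages and kidney, d2. Atp6v0d1 had a log2 intensity of 10.26, 10.09 and 9.93 on wild type arrays and of 10.44, 10.34 and 10.88 on mutant arrays. All mutant arrays were above all wild type arrays, by a gap of 0.08, and mutant array 3 was the highest. Its log2 fold change of 0.46 ± 0.20 (SE), or 1.37-fold, had a 95% interval of 0.00 to 0.91 and an adjusted p of 0.49 (limma). It is the only probe set of the gene, and it differed by 0.29 without mutant array 3 and by 0.30 against wild type array 1 alone.

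Atp6v0d2 had the largest fold change and also the largest spread of the set. The main probe set measured 4.38, 6.15 and 4.90 in wild type and 8.49, 6.86 and 6.02 in mutant cells. Mutant array 1 was the highest by a wide margin, and wild type array 2 exceeded mutant array 3, so the groups overlapped. The log2 fold change was 1.98 ± 0.66 (SE), or 3.94-fold, with a 95% interval of 0.44 to 3.51 and an adjusted p of 0.39 (limma). In the dimmer probe set the values were 4.42, 4.71 and 5.03 on wild type and 6.28, 5.34 and 5.11 on mutant arrays, without overlap, and the log2 fold change was 0.86. Both wild type means, 5.14 and 4.72, lay under the lower quartile of the array intensities (5.15 to 5.37), so the folds are those of a gene that is dim in wild type cells. The fold change of the main probe set ranged from 1.29 with mutant array 1 left out to 2.53 with mutant array 3 left out. It was 2.74 against wild type array 1 alone.

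Atp6v0a1 encodes an a subunit, the part of V0 that lines the proton path and directs the pump to its compartment. Its values were 9.67, 8.82 and 9.69 on wild type arrays and 10.10, 9.31 and 10.06 on mutant arrays. Array 2 was the lowest in both groups, and mutant array 2 was below 2 of the wild type arrays. Its fold change on the log2 scale was 0.43 ± 0.31 (SE), with an interval of -0.29 to 1.15 and an adjusted p of 0.65 (limma), and it was 0.15 both without wild type array 2 and against wild type array 1 alone. With the probe sets averaged it was 0.19. The 3 dimmer probe sets disagreed, with -0.27, 0.00 and 0.59, and the last of them had every mutant array above every wild type array.

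Atp6ap1 encodes an accessory subunit of V0 that takes part in assembly of the pump, and its gene lies on chromosome X. Its level was 9.92, 10.04 and 9.76 in wild type and 9.85, 10.21 and 9.84 in mutant cells, and the groups overlapped. The log2 fold change of 0.06 ± 0.18 (SE) had a 95% interval of -0.35 to 0.46, or 0.785-fold to 1.38-fold, with an adjusted p of 0.91 (limma). Its sign turned after quantile (-0.01) or cyclic loess normalization (-0.03) was applied again.

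**Figure D2:**
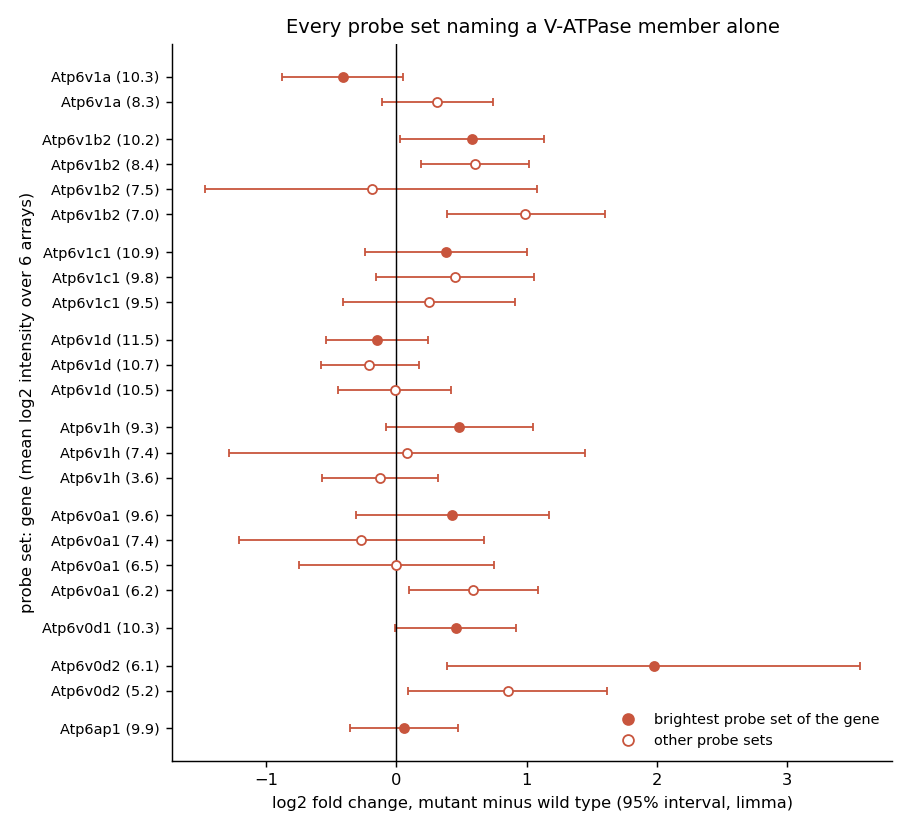
Log2 fold change, mutant minus wild type, with its 95% limma interval (horizontal axis) for each of the 23 probe sets that name a V-ATPase gene alone. Filled points are the brightest probe set of each gene, open points the others, and the number after the name is the mean log2 intensity over 6 arrays. Fold changes lie above 0 in 15 of the 23, and probe sets of Atp6v1a, Atp6v1b2, Atp6v1h and Atp6v0a1 fall on both sides of 0.

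Counted by probe set, 8 of the 23 had all mutant arrays above all wild type arrays and 0 had them all below. Of all probe sets naming a single gene 8.38% were separated upward. Counted by gene, 7.98% of all genes were separated downward, and 13.4% of the brighter 50% of genes upward. Probe sets of a gene share its RNA and are not separate observations. Of the 14 that were not the brightest of their gene, 9 had the same sign as the brightest. The lowest and highest values were spread over the arrays. Among the 9 genes, the lowest of the 6 values was on wild type array 3 in 4 genes (Atp6v0d1, Atp6v1c1, Atp6v1h and Atp6ap1), on wild type array 2 in Atp6v0a1 and Atp6v1b2 and on wild type array 1 in Atp6v0d2, but on mutant array 2 in Atp6v1d and on mutant array 3 in Atp6v1a. The highest value was on mutant array 1 in 4 genes, on mutant array 2 in 2 and on mutant array 3 in 1, and Atp6v1a and Atp6v1d were highest on wild type array 1. Without wild type array 3 the median fold change of the set was 0.24, and against wild type array 1 alone it was 0.25, with 7 of 9 genes above 0 where 58.1% of all genes were.

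Promoters are shown for the 2 members whose windows held an E-box of the kind that TFEB and its relatives are known to bind. RefSeq promoter windows of GRCm38.p6, from 250 bases before to 50 after the start, were matched to 6 of the 10 members. The motif searched was TCACGTGA, which reads the same on both strands and contains the core CACGTG. It occurred in the windows of Atp6v0d1 and Atp6v1a, and in 0.974% of all 32851 windows, while the core alone occurred in 7.15%. Counted by gene, the motif occurred in 1.12% and the core in 8.09% of all genes with a window. The stretches below are given 5′ to 3′ on the minus strand, on which both genes lie, with the motif in capitals, for Atp6v0d1 at chr8:105566045-105566114 and for Atp6v1a at chr16:44139350-44139419.
Atp6v0d1: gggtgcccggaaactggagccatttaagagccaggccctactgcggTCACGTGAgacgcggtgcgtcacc
Atp6v1a: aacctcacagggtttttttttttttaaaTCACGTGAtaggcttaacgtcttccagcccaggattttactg
The motif begins 4 bases before the start of Atp6v0d1, so that it spans the start, and 132 bases before that of Atp6v1a. Neither gene was called. The windows of Atp6v0a1, Atp6v0c, Atp6v1d and Atp6ap1 did not contain these letters or the core. Outside the set, 13 other subunit genes had a window. Of these 1, Atp6v0e, held TCACGTGA, and 2, Atp6v0b and Atp6v0e, held the core. A match is a description of sequence, and binding was not measured.

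The other subunits of the pump were compared in the same fit. Of 14 measured genes 0 were called in either direction (limma), where 0.110% of all genes were. At an unadjusted p under 0.05 (limma) there were 0, where 5.81% of all genes were higher and 4.24% lower. A fold change above 0 was found in 5 and below 0 in 9, where 40.4% of all genes were above 0. The median of the 14 genes was -0.07, equal to that of all genes. Their fold changes ran from -0.40 to 0.38. The smallest p-values were those of Atp6v1c2, an alternative C subunit that was dim on all arrays (log2 fold change -0.40, adjusted p = 0.54, limma), Atp6v1e1, for an E subunit of the stator (0.34, adjusted p = 0.59, limma), and Atp6v0e2, an isoform of the small e subunit (-0.28, adjusted p = 0.63, limma). Tcirg1, chosen after its values were seen, encodes the a3 subunit, which like d2 is typical of osteoclasts. It stood at 9.51, 9.84 and 10.04 on wild type and at 9.61, 9.93 and 9.66 on mutant arrays, with a log2 fold change of -0.06 and a 95% interval of -0.51 to 0.38.

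**Figure D3:**
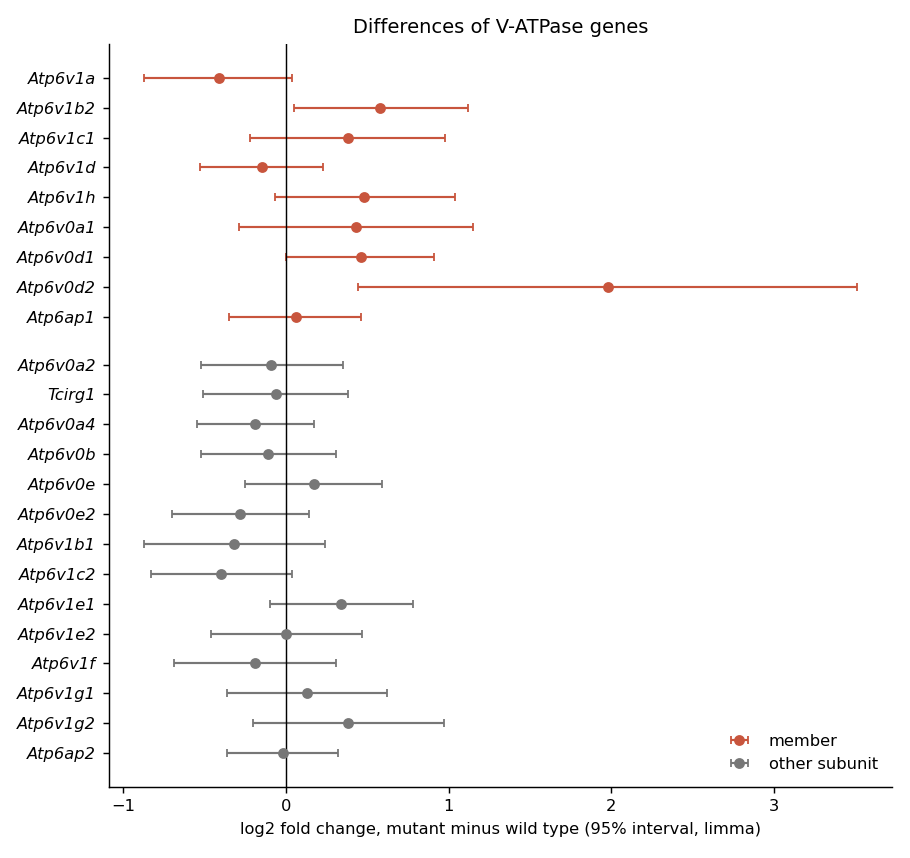
Log2 fold change, mutant minus wild type, with its 95% limma interval (horizontal axis) for the 9 measured genes of the set (red) and 14 other V-ATPase subunit genes (grey). The interval of Atp6v0d2 is the widest, from 0.44 to 3.51, and the other subunit genes lie between -0.40 and 0.38.

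Among 11 measured genes of pump assembly and regulation 0 were called (limma), 1 had an unadjusted p under 0.05 in each direction, and the median was 0.01. That cutoff was met by 5.81% of all genes in the higher and 4.24% in the lower direction. Tbc1d24, whose protein carries a TLDc domain of the kind found in V-ATPase regulators, measured 9.16, 9.30 and 9.15 in wild type and 10.95, 10.98 and 10.03 in mutant cells. The groups were separated by a gap of 0.73, and the log2 fold change was 1.45 ± 0.27 (SE), with a 95% interval of 0.83 to 2.07 and an adjusted p of 0.15 (limma). With Y-linked signal in the fit it was 1.48, and with the probe sets averaged 0.91. Ncoa7, another TLDc gene whose product binds the pump, went from 9.71, 9.92 and 9.94 to 9.41, 9.37 and 9.43, all mutant arrays being lower. Its log2 fold change was -0.45 ± 0.15 (SE), with an adjusted p of 0.39 (limma), and -0.24 with the probe sets averaged. Rnasek, a small V-ATPase-associated protein, had 0.25 (adjusted p = 0.61, limma).

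The genes that link the pump to mTORC1 had small fold changes, with limma intervals that include 0. Of the 5 Ragulator genes and Slc38a9, a lysosomal amino acid sensor, 0 were called (limma) or had an unadjusted p under 0.05. Among them 2 were above 0 and 4 below, and fold changes ran from -0.25 (Slc38a9) to 0.19 (Lamtor5), with 0.15 for Lamtor1. Slc38a9 lay between 8.22 and 9.56 over the arrays, and its interval, the widest, was -0.99 to 0.49. For Lamtor4 the interval was -0.64 to 0.46, so larger differences in either direction are not excluded. Of the 4 MiT/TFE transcription factors 0 were called (limma) and 1 was higher at an unadjusted p under 0.05, as were 5.81% of all genes. Mitf stood at 8.23, 7.43 and 7.58 on wild type and at 8.46, 8.45 and 8.74 on mutant arrays, without overlap, which gives 0.80 ± 0.24 (SE) on the log2 scale and an adjusted p of 0.31 (limma). It was 0.32 against wild type array 1 alone and 0.24 with the probe sets averaged. Tfeb and Tfec had -0.10 and -0.12.

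Further channels and exchangers of the endolysosomal membrane, which carry the ions that accompany proton pumping or leave the lysosome, included 12 measured genes. Of these 0 were called (limma). At an unadjusted p under 0.05, met by 5.81% of all genes in the higher direction, 0 were lower and 3 of the 12 were higher in mutant arrays. They were Mcoln3, a mucolipin cation channel, at 1.49 on the log2 scale (adjusted p = 0.27, limma), Clcn6, a chloride-proton exchanger of late endosomes, with 0.68 (adjusted p = 0.44, limma), and Clcn5, an exchanger of endosomes, with 0.51 (adjusted p = 0.49, limma). Against wild type array 1 alone these were 0.90, 0.27 and 0.42, and with the probe sets averaged 0.91, 0.48 and 0.10. Clcn6 was 0.40 without wild type array 2, and Clcn5 was 0.30 without wild type array 3.

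The genes whose profile over the 6 arrays came nearest to that of Atp6v0d2, the member with the smallest p, were Ctss, Cd74, St6gal1, Cdo1 and Sparc. Likeness was the root mean square distance between log2 profiles centred on their own means, which was 0.50, 0.52, 0.58, 0.58 and 0.63, where the profile of Atp6v0d2 itself had a root mean square of 1.34. Ctss encodes the lysosomal protease cathepsin S, and Cd74 encodes the invariant chain of MHC class II. Ctss measured 9.49, 10.14 and 9.57 in wild type and 12.19, 11.00 and 10.85 in mutant cells, and as in Atp6v0d2 mutant array 1 was the highest and wild type array 1 the lowest. The 5 genes were picked for their likeness on these same arrays, so a shared order of arrays follows from the choice. In Ctss and Cd74 all mutant arrays lay above all wild type arrays, whereas in St6gal1, Cdo1 and Sparc the groups overlapped. Cd74 is also 1 of the markers counted below.

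Markers of macrophages and dendritic cells, which express Atp6v0d2, did not all move in 1 direction. Of 23 measured markers 15 had a fold change above 0 and 8 below, where 40.4% of all genes were above 0. In 10 all mutant arrays lay above all wild type arrays, as in 8.08% of all genes. In 1 they all lay below, as in 7.98% of all genes. By limma 0 were called. At an unadjusted p under 0.05 (limma) there were 9 higher and 1 lower, where 5.81% and 4.24% of all genes were. The smallest p-values were those of Cd68, C1qb and H2-Aa, with adjusted p of 0.078, 0.099 and 0.103 (limma). The log2 fold change was 2.57 for C1qb and 2.13 for H2-Aa, and Cd68 had 8.21, 7.76 and 7.70 on wild type and 9.70, 9.26 and 9.20 on mutant arrays. Lyz2, the lysozyme gene of myeloid cells, had all mutant arrays below and -0.65. The summed linear intensity of the 23 markers was 9780 to 11035 on wild type arrays and 21475, 11678 and 13484 on mutant arrays 1, 2 and 3. On each wild type array Lyz2 was the brightest of the 23, at a log2 intensity of 12.62, 12.54 and 12.14, against 11.95, 11.68 and 11.73 on mutant arrays. It therefore weighs most in the wild type sums and narrows the difference between the groups. Mutant array 1 was the highest for Atp6v0d2 and for this sum, but mutant array 3, the lowest of the mutant arrays for Atp6v0d2, was above mutant array 2 in the marker sum. The macrophage antigen gene Adgre1, chosen after its values were seen, was between 4.26 and 5.11 on all arrays. Of 9 osteoclast genes 2 had a fold change above 0 and 7 below. In 1 all mutant arrays lay above all wild type arrays, as in 8.08% of all genes, namely Itgb3, which megakaryocytes also express. Of 5 measured megakaryocyte markers 1 was above 0 (Itga2b, at 0.01) and 4 below, where 40.4% of all genes were above 0. All mutant arrays lay below all wild type arrays in 3 of the 5, as in 7.98% of all genes. The cell source of Itgb3 was not tested. The defining osteoclast genes Ctsk (4.55 to 5.19) and Calcr (3.36 to 4.58), also chosen after their values were seen, were dim on every array. Not every gene of this list was dim: Nfatc1 lay between 9.09 and 9.61, and Acp5 between 5.78 and 8.67, highest on wild type array 3. The mast cell and basophil markers had a summed intensity of 2277 to 2960 on wild type and 5313 to 8382 on mutant arrays. For the neutrophil markers the sum was 27894 to 36154 on wild type and 12834 to 16072 on mutant arrays. Neither list moved in 1 direction only. Of 10 measured mast cell and basophil markers 8 had a fold change above 0 and 2 below. Among 10 measured neutrophil markers 2, Mpo (0.16) and Prtn3 (0.19), were above 0 and 8 below. In sorted bulk cells, more cells of a type and more RNA per cell cannot be told apart, and the part of these cell types in the V-ATPase values was not tested.

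**Figure D4:**
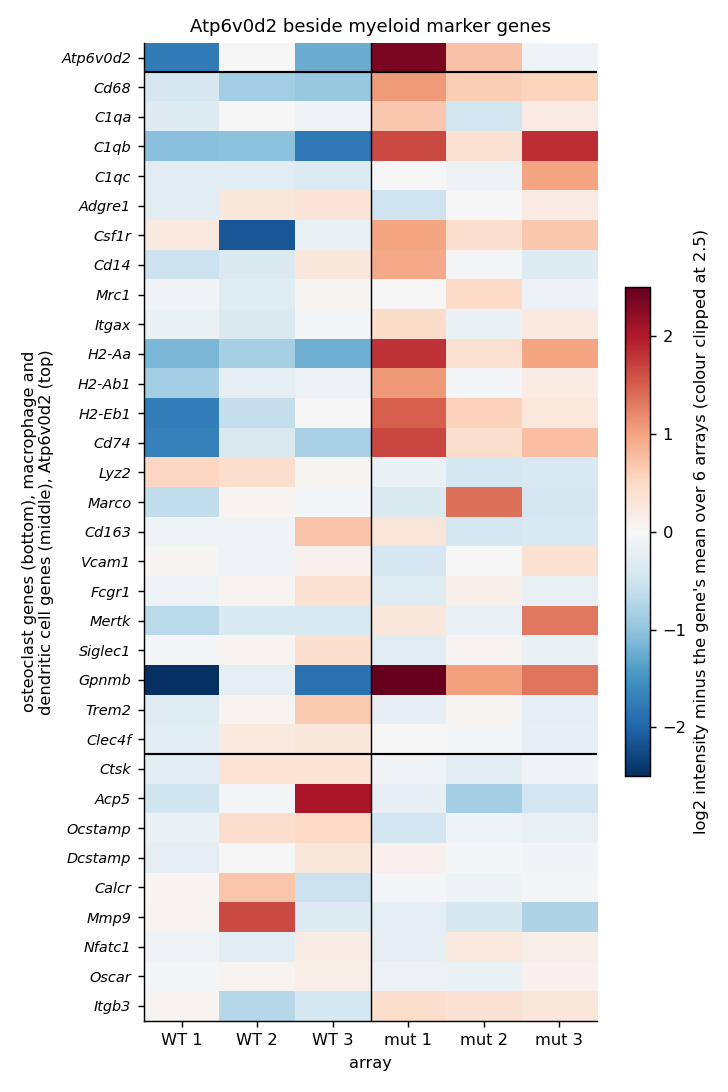
Log2 intensity minus the gene's mean over 6 arrays (colour, red above and blue below, clipped at 2.5) for Atp6v0d2 (top row), 23 macrophage and dendritic cell markers and 9 osteoclast genes (rows) on the 6 arrays (columns). Among the macrophage and dendritic cell markers 15 have a fold change above 0, with Gpnmb (3.32) the highest, and 8 below 0, with Lyz2 (-0.65) the lowest, and among the osteoclast genes 2 are above and 7 below.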

How the data were processed

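Each array's deposited intensities have a linear scale and were normalized by the authors with RMA per the submitters' processing notes (version and settings not given in the sources used here). RMA adjusts background, equalises arrays and summarises probes, which compresses folds of dim genes, and a shift shared by most genes would be lost. Here log2 was taken. Array medians were 6.85 to 6.94, and the number of arrays limits the precision. Probe sets were named from GEO's platform annotation: of 45101, 34945 named a single gene, 932 several and 9160 none, and 64 were array controls. For each of 18193 genes the brightest probe set was used.

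The mutant and wild type groups were set against each other in limma (version 3.58.1, with R version 4.3.3; lmFit and eBayes), two-sided, over all genes, without covariate. Values of single probe sets come from the same fit over all probe sets. The procedure was tested on simulated data. The pairing of replicate numbers was checked. No pair of arrays shared identical values in more than 99 probe sets. Members and gene lists were chosen with earlier results of these data known. Named genes are all members, Rptor, the sex-linked genes, the 5 nearest profiles and, of each pump, Ragulator, MiT/TFE and ion transport list, called genes or else the 3 with the smallest p. Marker genes and Tcirg1 were named after their values were seen. Alternatives tried were a replicate block, renormalization, probe set rules, filters, variance models, array weights, Y-linked signal and leaving out arrays.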

Additional observations from a re-analysis of the deposited data

How the results depend on the processing

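The 9 genes stayed without a call under all 19 alternatives tried, as did the 14 other subunits. The smallest adjusted p of any member was 0.180 (limma), for Atp6v1b2 without wild type array 1. In 8 of the 9 genes the fold change kept its sign in every alternative. The exception was Atp6ap1, at -0.03 after cyclic loess and -0.01 after quantile normalization again, and at -0.07 to 0.12 when single arrays were left out (-0.07 without mutant array 2 and -0.02 without wild type array 3). The median of the set, 0.43 in the main comparison, was 0.19 when probe sets of a gene were averaged, 0.28 with a Y-linked covariate and 0.25 over arrays without that signal, and 0.24 to 0.54 when single arrays were left out. The number of all genes called, 20, was 10 with the replicate block, 8 with array weights, 12 when probe sets were tested singly, 40 with trend and robust fitting, 49 at an adjusted p under 0.10, 0 with a Y-linked covariate (limma, 1149 at an unadjusted p under 0.05), 0 over arrays without it (1729), and 5 to 31 when single arrays were left out. Without the lower 50% of genes Atp6v0d2 was not tested. Same-numbered arrays deviated together weakly at most (r across genes of 0.184, -0.026 and 0.063), where arrays of unlike number had r of -0.156 to 0.094. The numbers were therefore not taken as pairs. With the replicate block the SE of Atp6v0a1 was 0.15 in place of 0.31 and that of Atp6v1h 0.18 in place of 0.24. Those of Atp6v0d1, Atp6v1b2 and Atp6v0d2 were slightly larger. With 3 arrays a group, the 95% intervals of the members were between that of Atp6v1d (-0.53 to 0.23) and that of Atp6v0d2 (0.44 to 3.51) in width.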
